A study of Mus musculus with 3 samples.

Results

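The IKK, TBK1 and TAK1 kinase complexes were examined through the 10 mouse genes that encode their subunits: Ikbke, Tbk1 and Tank, Ikbkb, Chuk and Ikbkg, and Map3k7, Tab1, Tab2 and Tab3. They were taken by gene symbol, and each symbol matched 1 of the 55536 annotated genes in the tables. The RNA came from chromatin of C57BL/6J bone marrow-derived macrophages, primary phagocytes grown out of marrow cells, after 120 min with 100 ng/ml lipid A, the part of bacterial lipopolysaccharide that the receptor TLR4 recognises. Ribosomal RNA was depleted and 3 libraries of total RNA were sequenced, with fragments of 250 to 400 nt. All 3 libraries belong to 1 group, so the values describe stimulated cells, no contrast between conditions exists, and an unstimulated level was not analysed here. Age and sex are given as not collected. The libraries share 1 donor label and nothing says that they came from separate cultures, so spreads and p-values describe how far the 3 libraries differ, and that may be purely technical.

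The 3 complexes carry a TLR4 signal from ubiquitin chains to transcription factors. TAK1, the kinase encoded by Map3k7, is held to such chains by the adaptors TAB2 or TAB3 and activated by TAB1, and it phosphorylates IKKβ, the product of Ikbkb. IKKβ works with its paralog IKKα, encoded by Chuk, and the scaffold NEMO, encoded by Ikbkg, to phosphorylate the IκB proteins that hold NF-κB in the cytoplasm. TBK1 and its paralog IKKε, encoded by Ikbke, phosphorylate the interferon regulatory factors, and TANK is a scaffold that binds both. Chromatin RNA is rich in transcripts still being made or held at the gene, so a level here is closer to the output of transcription than to the pool of cytoplasmic mRNA.

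Gene totals were 19751051, 20372850 and 21984526 expected counts in replicates 1, 2 and 3. Expected counts are read totals shared out among features. Levels are given as TPM, in which a count is corrected for transcript length and every library sums to the same total. Starting RNA was 1 µg, 250 ng and 500 ng in replicates 1, 2 and 3 and cannot be told apart from the replicate. All 8 macrophage markers had a mean of at least 1 TPM. Of 31 markers of other cell types, 4 did (Lck, Kit, Alas2 and Kdr) and 8 were at 0 in every library. The summed level of the 31 was 12.1, 16.7 and 16.9 TPM. By a second quantifier, described below as the other quantifier, Pecam1 (6.75 TPM), Cxcr2 (3.91 TPM) and Zbtb46 (1.58 TPM) also averaged at least 1 TPM. Cxcr2 is 1 of the 8 at 0 in the gene table, and Kit averaged 0.98 TPM by the other quantifier. Replicate 2 stood apart in 10 mitochondrial, ribosomal protein and other abundant cytoplasmic RNAs, whose median was 350 TPM there against 23.3 TPM in replicate 1 and 28.5 TPM in replicate 3. The part of that RNA in the values below was not tested. Values without replicate 2 are given where leaving it out changed a call for the 10 genes or a stated order of gene means. They are also given where it moved the mean of a gene reported below by over 1.5 times. In bulk RNA such as this, fewer cells of a type and less RNA per cell cannot be told apart.

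Windows at the start sites of Ikbke, Tbk1 and Tank are shown. Ikbke and Tbk1 are paralogs at very different levels, and Tank has isoforms with counts from more than 1 annotated start. The sequences are those of RefSeq on GRCm38.p6, from 250 bases before to 50 after the start site, on the gene's strand. Capitals mark matches to a κB pattern, GGGNNNNNCC on either strand, which 50.8% of 32851 such windows hold. An interferon response pattern, GAAANNGAAA, was sought in the same way and is held by 3.44% of windows. Overlapping matches were each counted. The Ikbke window is chr1:131279514-131279813, minus strand, that of Tbk1 is chr10:121586745-121587044, minus strand, and those of Tank are chr2:61578336-61578635 and chr2:61592847-61593146, plus strand.
Ikbke: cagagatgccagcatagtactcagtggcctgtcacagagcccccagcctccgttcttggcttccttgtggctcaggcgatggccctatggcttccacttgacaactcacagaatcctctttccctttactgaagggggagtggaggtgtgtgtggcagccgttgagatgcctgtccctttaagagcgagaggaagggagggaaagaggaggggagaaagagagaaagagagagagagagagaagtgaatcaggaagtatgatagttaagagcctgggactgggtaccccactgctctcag
Tbk1: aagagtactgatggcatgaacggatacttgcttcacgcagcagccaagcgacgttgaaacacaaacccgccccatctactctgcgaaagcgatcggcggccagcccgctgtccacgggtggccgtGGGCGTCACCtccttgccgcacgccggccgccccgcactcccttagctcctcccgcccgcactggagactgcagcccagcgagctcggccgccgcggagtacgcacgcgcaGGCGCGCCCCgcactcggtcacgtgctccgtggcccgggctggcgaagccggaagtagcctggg
Tank, upstream start: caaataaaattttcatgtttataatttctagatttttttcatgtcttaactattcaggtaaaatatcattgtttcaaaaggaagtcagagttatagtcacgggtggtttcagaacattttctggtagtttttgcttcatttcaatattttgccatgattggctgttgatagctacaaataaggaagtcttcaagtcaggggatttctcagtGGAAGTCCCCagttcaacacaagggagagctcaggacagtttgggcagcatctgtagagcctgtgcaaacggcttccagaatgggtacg
Tank, downstream start: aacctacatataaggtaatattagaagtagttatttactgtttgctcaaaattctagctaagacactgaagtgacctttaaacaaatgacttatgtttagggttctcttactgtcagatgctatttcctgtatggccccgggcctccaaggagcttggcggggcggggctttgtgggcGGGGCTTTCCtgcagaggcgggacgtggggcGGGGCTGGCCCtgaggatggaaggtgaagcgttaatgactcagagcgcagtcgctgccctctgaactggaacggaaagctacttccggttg
The Ikbke window held neither pattern. It takes in the start of 1 of the 7 Ikbke isoforms, Ikbke-201, which had 24.0% of the gene's TPM and 48.5% of its counts on average. The coding isoform Ikbke-204 starts 2655 nt from the gene's start, outside the window. The Tbk1 window held 2 κB matches, the upstream Tank window 1 and the downstream Tank window 4, of which 3 overlap each other. The Ikbke and Tbk1 windows also differed in CpG dinucleotides, with 4 in Ikbke and 37 in Tbk1, beside a median of 7 over all windows and quartiles of 3 and 20. The upstream Tank window had 3 and the downstream 12; each has a near neighbour that overlaps it, with the same κB matches. RefSeq windows were at hand for 8 of the 10 genes. In the others, κB matches numbered 4 for Map3k7, of which 2 overlap, 3 for Tab3 and 1 for Chuk, with none in either Tab2 window, and the 4 Ikbkg windows held 3, 0, 1 and 0. No window of these 8 genes held the interferon response pattern. A match is a run of letters and not a measured binding site.

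Ikbke dominated the 10 genes. It lies on chromosome 1 from 131254343 to 131279606 (mm10, minus strand) and had 732, 726 and 843 TPM in replicates 1, 2 and 3, a mean of 767 ± 65.5 TPM (SD, n = 3). That is rank 10 of 22028 protein-coding genes by mean level. Its share of the summed TPM of the 10 genes was 66.9%, 62.5% and 62.7%. The highest value of any other of the 10 genes was 121 TPM, so the ranges of Ikbke and of the rest were far apart. Tbk1 (chromosome 10, 121546455 to 121586787) had 94.9, 82.7 and 105 TPM in the same libraries. The third gene of this complex, Tank (chromosome 2, 61578585 to 61654171), had 57.4, 73.0 and 83.5 TPM. Taken as a sum, the TBK1 complex reached 933 ± 85.7 TPM, of which Tbk1 and Tank made up 166 ± 20.2 TPM.

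Among the IKK subunits, the kinase gene Ikbkb (chromosome 8, 22659212 to 22706589) was highest, with 76.2, 116 and 121 TPM. Replicate 1 was the lowest library, as it was for all genes at the median in TPM; relative to that median Ikbkb was at -0.07 there on the log2 scale. Chuk (chromosome 19, 44073335 to 44107480) had 36.8, 46.3 and 55.0 TPM, and its highest library stayed under the lowest of Ikbkb in the gene table. By the other quantifier these ranges overlapped, with Chuk at 91.05 TPM in replicate 3 and Ikbkb at 82.85 TPM in replicate 1. Ikbkg (chromosome X, 74393290 to 74453854), the gene of the scaffold that the complex needs for the canonical response, had only 9.29, 11.6 and 11.0 TPM. The IKK genes summed to 161 ± 34.3 TPM.

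Within the TAK1 complex the adaptor gene Tab2 (chromosome 10, 7905653 to 7956230) was highest, with 61.2, 80.4 and 97.3 TPM. The kinase gene Map3k7 (chromosome 4, 31964097 to 32023467) had 21.4, 20.7 and 22.3 TPM in the gene table, the narrowest spread of the 10 genes relative to its mean on this scale. By the other quantifier it had 30.7, 28.2 and 46.7 TPM, and on TMM-scaled counts, described below, Tank, Tab2, Chuk, Ikbkb and Ikbkg had narrower ranges. Tab3 (chromosome X, 85574022 to 85634469), whose protein can stand in for TAB2, had 3.44, 3.77 and 4.58 TPM. The lowest gene was Tab1 (chromosome 15, 80133127 to 80161707), which encodes the activating subunit, with 2.12, 1.96 and 2.22 TPM from 66, 82 and 57 expected counts. Even so, 65.1% of protein-coding genes had a lower mean than Tab1. Summed, the TAK1 genes had 107 ± 19.1 TPM.

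**Figure D1:**
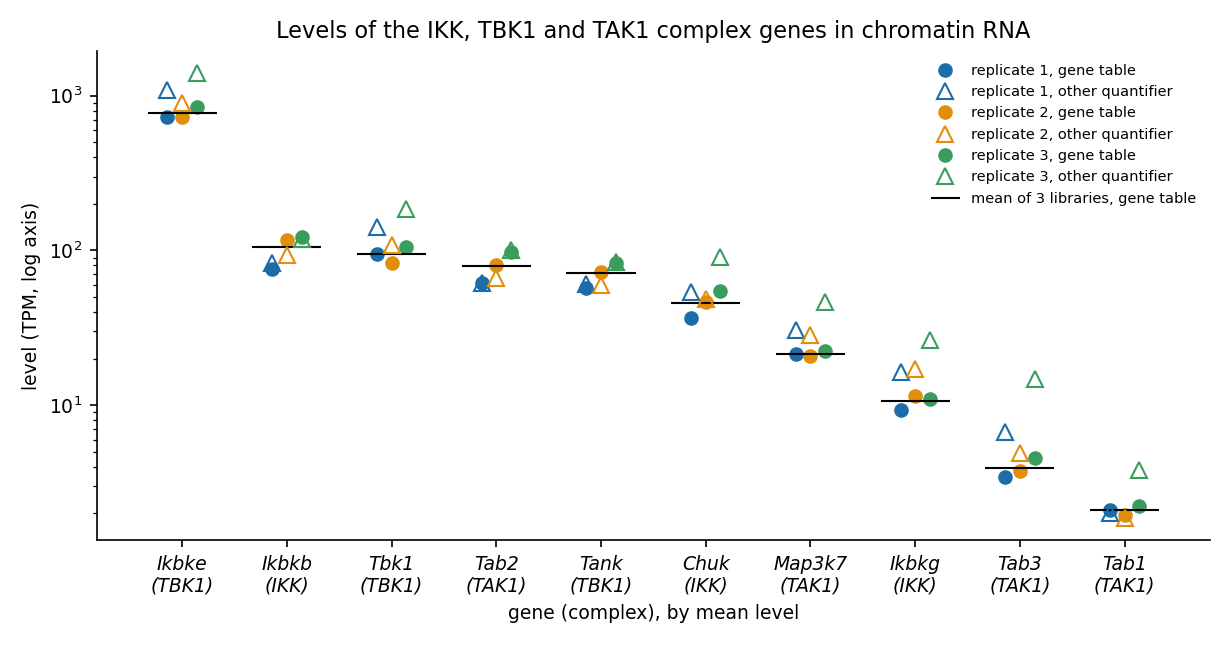
Levels in TPM on a log axis for each of the 10 genes, ordered by mean, with the complex in parentheses. Filled circles are the 3 libraries in the gene table, open triangles the same libraries by the other quantifier, and lines the means of the gene table. Ikbke sits between 726 and 843 TPM in the gene table and between 893 and 1400 TPM by the other quantifier, above every other gene in both.

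Some neighbours in this order did not differ beyond their spread. Ikbkb lay above Tbk1 in 2 of 3 libraries, by 0.13 ± 0.41 on the log2 scale. Without replicate 2 their order turned, with means of 98.7 TPM for Ikbkb and 100.2 TPM for Tbk1. The ranges of Tbk1 and Tab2, and of Tab2 and Tank, also overlapped, although Tbk1 was above Tab2 and Tab2 above Tank in 3 of 3 libraries. From Tank downwards no neighbouring ranges overlapped in the gene table. By the other quantifier those of Tank and Chuk did, with Tank higher in 2 of 3 libraries. The other quantifier placed Tbk1 above Ikbkb in every library, by a mean of 0.54, and gave Ikbke 1092, 893 and 1400 TPM. With protein-coding isoforms alone, a choice made after the values were seen, the order ran Ikbke, Tab2, Tbk1, Tank, Ikbkb, Chuk, Ikbkg, Map3k7, Tab3 and Tab1. On that scale Ikbke had 299, 267 and 275 TPM and Ikbkb only 23.1, 29.1 and 23.9 TPM.

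Contrasts of paralogs and of partners were made within each library as log2 ratios of TPM + 0.1. Ikbke exceeded Tbk1 by 2.95, 3.13 and 3.00 in replicates 1, 2 and 3, a mean of 3.03 ± 0.10 or 8.15-fold. Ikbkb exceeded Chuk by 1.05, 1.33 and 1.14, a mean of 2.25-fold. The largest gap between paralogs was that of Tab2 over Tab3, at 4.11, 4.38 and 4.38, or 19.6-fold. Each paralog pair thus had 1 gene higher in 3 of 3 libraries. Of the partners, the kinase gene exceeded the gene of its activating or scaffold subunit throughout. Map3k7 stood 9.80-fold above Tab1 (log2 difference 3.29 ± 0.04) and Ikbkb 9.62-fold above Ikbkg (3.27 ± 0.22). Tbk1 over Tank was the smallest contrast, at 0.72, 0.18 and 0.34 or 1.33-fold. All 6 pairs had p = 0.25 in an exact sign-flip test, two-sided, the smallest value possible with 3 libraries; adjusting over the 6 pairs (Benjamini-Hochberg) left it at 0.25. The sizes depended on the setting. Tbk1 over Tank was 1.07 by the other quantifier and 0.26 without replicate 1. Ikbkb over Chuk was 0.65 by the other quantifier and 1.89 by expected counts, and Ikbkb over Ikbkg was 1.79 with protein-coding isoforms alone.

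Differences between libraries were tested by chi-square on rounded expected counts with trimmed-mean (TMM) scaling, Benjamini-Hochberg over 14200 genes. On this test 8 of the 10 genes varied beyond counting error, where 68.8% of all genes tested did, so variation as such does not set them apart. The exceptions were Tank (119, 116 and 121 CPM, counts scaled to library size by TMM; adjusted p = 0.329) and Ikbkg (21.2, 24.2 and 24.8 CPM; adjusted p = 0.058). Ikbkg passed the threshold without replicate 2 (adjusted p = 0.0292) and Tank without replicate 3 (adjusted p = 0.00538). The median ratio of highest to lowest library was 1.21 over the 10 genes and 1.54 over all genes tested. Tbk1 had 226, 143 and 147 CPM, a 1.58-fold range with replicate 1 highest (adjusted p = 2.352e-107, chi-square). Ikbke had 1439, 1142 and 1111 CPM, a 1.29-fold range with the same library highest (adjusted p = 1.323e-226, chi-square). Without replicate 1, the range of Tbk1 was 1.03-fold (adjusted p = 0.385) and 4 of the 10 genes varied, while the number over all genes fell to 6826 without that library, against 9769 with it. Chuk, Map3k7 and Tab3 also lost the call without replicate 1, and Tab1 and Tab3 without replicate 3. The 1.67-fold range of Tab1 (3.67, 4.01 and 2.37 CPM; adjusted p = 0.00956) rests on few counts. By the other quantifier it was 1.25-fold (adjusted p = 0.286), and that of Tab3 was 1.06-fold (adjusted p = 0.829).

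The highest library depended on the scale. By TPM, 9 of the 10 genes were highest in replicate 3 and Ikbkg in replicate 2. By TMM-scaled CPM, Ikbke, Tbk1, Map3k7, Chuk and Tab2 were highest in replicate 1. Over all genes tested, TMM-scaled CPM was highest in replicate 1 for 27.7%, in replicate 2 for 35.2% and in replicate 3 for 37.2%. The matching shares by TPM were not taken. The median of all genes tested was itself shifted in TPM, by -0.36, 0.09 and 0.25 (log2) in replicates 1, 2 and 3. Relative to that median, Tbk1 was at 0.38 in replicate 1 by TPM, 0.50 by TMM-scaled CPM and 0.51 by DESeq2-scaled counts, and below the median in the other libraries on each scale. Ikbke was likewise at 0.30, 0.31 and 0.32 in replicate 1 and between -0.11 and -0.16 elsewhere. Map3k7 followed with 0.36, 0.28 and 0.28 in replicate 1. Ikbkb, Tank and Tab2 stayed within 0.13 of the median in every library on every scale.

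The 10 genes had 86 annotated isoforms, of which 64 had counts in every library and 9 had none in any. These include isoforms annotated as retaining an intron, which carry intronic sequence and are not annotated as coding. Reads in introns that no annotated isoform keeps are not counted in these tables. Ikbke had 7 isoforms, all seen in every library. The full-length coding isoform Ikbke-201, of 3251 nt and 22 exons, had 180.7, 184.5 and 184.5 TPM. That closeness belongs to the TPM scale, where the median of all genes tested was shifted by -0.36, 0.09 and 0.25 (log2). Its expected counts, not scaled to library size, were 12951, 11627 and 12186. Retained-intron isoforms summed to 434, 459 and 568 TPM, or 59.2%, 63.2% and 67.3% of the gene. By expected counts the same isoforms held 38.0%, 42.3% and 48.7%, a scale on which short isoforms weigh less than in TPM. The order of the libraries was the same on both scales, with replicate 3 highest.

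The highest of the retained-intron isoforms was Ikbke-207, of 741 nt, with 155, 174 and 198 TPM, which takes in 294 nt of intron 10 of the 21 introns of Ikbke-201. Ikbke-205, of 797 nt, had 168, 147 and 183 TPM and takes in 323 nt of intron 7. Neither covers a whole intron. By the other quantifier Ikbke-207 and Ikbke-205 averaged 364 and 245 TPM, above Ikbke-201 at 139 TPM. Expected counts were 1935, 1765 and 2155 for Ikbke-207 and 2319, 1666 and 2218 for Ikbke-205, far below those of Ikbke-201. Ikbke-206, of 5856 nt, covers introns 17, 18 and 19 in full (722, 1184 and 677 nt) and 77.9% of intron 15, and ends past the last base of Ikbke-201. It had 32.3, 43.6 and 54.7 TPM, and 4293, 5140 and 6740 expected counts, the most of any retained-intron isoform of the gene. It was thus the isoform with the longest intronic stretches. Both values were higher in replicate 3 than in replicate 1, but neither comparison is free of library effects. Expected counts are not scaled to library size, and the TPM median of all genes was at -0.36 in replicate 1 and 0.25 in replicate 3 (log2). The antisense genes Gm28913 and Gm28914 overlap Ikbke by 3420 and 1047 nt. Gm28913 held 200, 207 and 268 counts and Gm28914 held 238, 252 and 263, beside 25856, 23320 and 26776 for Ikbke, and since the strand setting is not given in the sources used here, their reads cannot be told apart from those of Ikbke where they overlap.

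**Figure D2:**
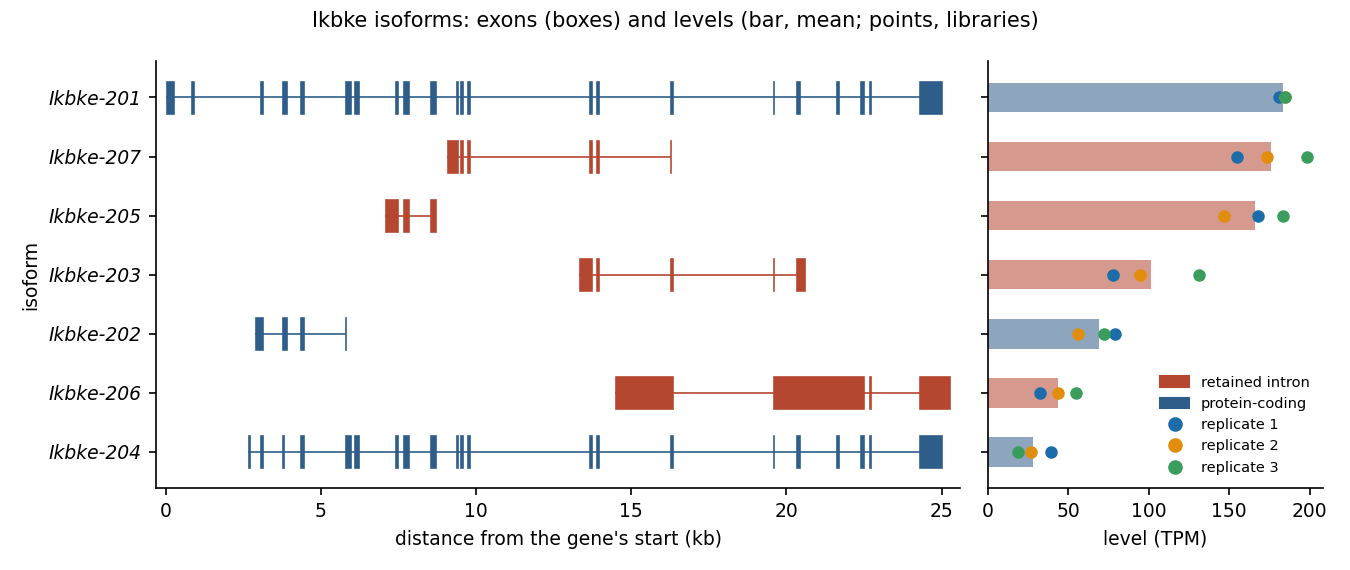
Left, exons (boxes) and introns (lines) of the 7 Ikbke isoforms against distance from the gene's start in kb; right, their level in TPM, with bars for the mean of 3 libraries and points for each library. Ikbke-201 is at 180.7 to 184.5 TPM in the 3 libraries. The short isoforms Ikbke-207 and Ikbke-205 reach similar means of 176 and 166 TPM on this scale. By the other quantifier both lay above Ikbke-201, and by expected counts both lay below it.

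Isoform use was compared between retained-intron and protein-coding isoforms of the same gene, as the mean over libraries of log2 of their TPM + 0.1, tested against 0 with limma in 5602 genes. Of the 10 genes, 7 have both classes; Map3k7, Tab3 and Tank have no retained-intron isoform. Chuk was highest, at 1.33, 1.54 and 1.96 in replicates 1, 2 and 3 (mean 1.61, SE 0.28, adjusted p = 0.00641, limma). Ikbkb was at 0.86, 1.32 and 1.80 (mean 1.33, SE 0.30, adjusted p = 0.0153, limma). So in 2 of the 7 genes, both IKK kinases, retained-intron isoforms lay above the coding ones, where 19.4% of all genes tested did. Ikbkg at -1.45, -2.90 and -2.27 (adjusted p = 0.00503, limma) and Tab2 at -1.32, -1.32 and -1.07 (adjusted p = 0.0123, limma) lay below, as did 29.7% of all genes. The only retained-intron isoform of Ikbkg had 17.7, 9.36 and 15.0 counts, and with all non-coding isoforms in its place the ratio was -1.25 (adjusted p = 0.0553). Tab2 lost the call without replicate 1 (adjusted p = 0.074) and without replicate 2 (adjusted p = 0.0616), at a ratio of -1.19 in both. Ikbke, at 0.54, 0.78 and 1.04, missed the threshold (adjusted p = 0.0571, limma) and passed it with a pseudocount of 1 and by the other quantifier. Tbk1 was at -0.39 and Tab1 at -0.07 on average, neither past the threshold. Tab1 had 0.24, -1.15 and 0.71, so its libraries fell on both sides of 0, and its mean was 0.47 without replicate 2. The median of the 7 genes was -0.07, against -0.23 over all genes tested.

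Counts not scaled by length gave lower ratios, a comparison added after the values were seen. Across all genes 14.4% were then above 0 and 58.4% below. Of the 7 genes only Ikbkb lay above with an adjusted p under the threshold, at 0.51, 1.06 and 1.83 (mean 1.13, adjusted p = 0.0278, limma). Chuk was at -0.15, -0.03 and 0.41, with similar counts in both classes. Ikbke turned to -0.71, -0.45 and -0.08, so the direction for Ikbke depends on whether length is taken into account. Tbk1, Tab2, Tab1 and Ikbkg lay below, with means between -3.11 and -4.96 and a largest adjusted p of 0.00116 (limma). The ratio by TPM was lowest in replicate 1 for 5 of the 7 genes and in replicate 2 for the other 2; over all genes the shares were 46.7% in replicate 1, 43.1% in replicate 2 and 10.2% in replicate 3.

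**Figure D3:**
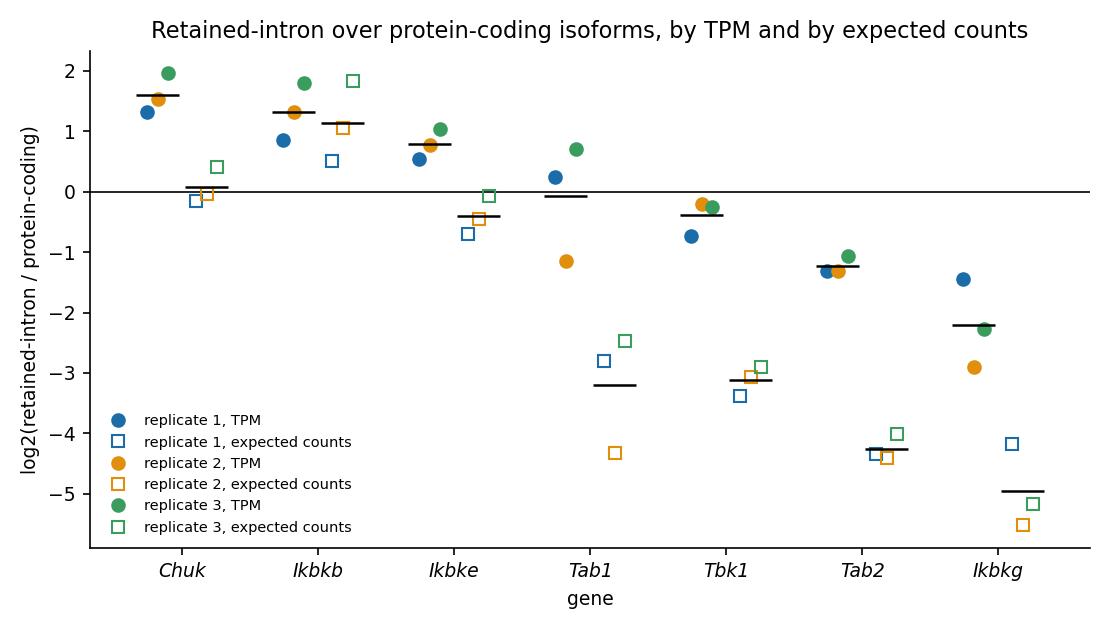
Log2 ratio of retained-intron to protein-coding isoforms for the 7 genes that have both, by TPM (filled circles) and by expected counts (open squares), with 1 colour per library and black lines for the means. Ikbkb is above 0 on both scales in all 3 libraries, Tbk1, Tab2 and Ikbkg are below 0 on both, and Ikbke is above 0 by TPM and below 0 by counts.

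By mean TPM, the leading retained-intron isoform took in whole introns for Ikbkb and part of an intron for Chuk. For Ikbkb, the leading retained-intron isoform was Ikbkb-211, of 4845 nt, with 10.5, 16.8 and 23.4 TPM. It covers introns 12 and 13 of the 21 in Ikbkb-201 in full (1900 and 510 nt). The leading coding isoform, Ikbkb-201, had 17.0, 18.4 and 11.1 TPM. It was thus above Ikbkb-211 in replicates 1 and 2 and below it in replicate 3. By the other quantifier the order in replicate 2 turned, with Ikbkb-201 at 13.4, 9.96 and 6.72 TPM and Ikbkb-211 at 9.49, 11.7 and 18.5 TPM. Of isoforms annotated for nonsense-mediated decay, the highest in the 10 genes was Ikbkb-208, with 10.6, 12.0 and 10.7 TPM. For Chuk, Chuk-207, of 2337 nt, led with 11.8, 14.9 and 18.7 TPM, above the coding Chuk-201 with 7.34, 8.77 and 7.78 TPM in each library. Chuk-207 starts near the promoter and ends 531 nt into intron 16 of 20, with no intron covered in full. Ikbkg was spread thinly over 18 isoforms, of which 7 had counts in every library. The highest coding one by mean TPM, Ikbkg-216, had 0.46, 3.12 and 1.71 TPM from only 5.53, 30.2 and 17.7 counts. Ikbkg-203 had 1.57, 1.89 and 1.12 TPM from 115, 122 and 75.9 counts and was higher in replicate 1, so the leading coding isoform is uncertain. Isoforms from the outermost Ikbkg start held 0, 0 and 4.8 counts.

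Ikbkg needs care for another reason. It overlaps G6pdx, which runs on the opposite strand and encodes an enzyme of the pentose phosphate pathway, by 19712 nt, and 326 of 8325 stretches of 50 nt in its transcripts (3.92%) also occur in those of G6pdx. G6pdx had 5.37, 11.3 and 6.46 TPM, of the order of Ikbkg itself. Its highest library, replicate 2, was also the highest for Ikbkg by TPM, and whether reads were exchanged between them was not tested. Map3k7 shares 4.36% of its stretches with the pseudogene Gm8188, which was listed at 0 in each library.

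In the TBK1 and TAK1 complexes, coding isoforms took most of the counts. Tbk1-201, of 3024 nt, had 52.0, 42.5 and 48.1 TPM and 3447, 2477 and 2936 counts. Retained-intron isoforms of Tbk1 held 41.7% ± 4.86 of its TPM but 9.87% ± 1.53 of its counts (SD, n = 3), and the highest, Tbk1-207 of 747 nt, had 13.8, 16.2 and 19.0 TPM. Tab2-204, of 4380 nt, had 34.6, 41.2 and 38.7 TPM. The retained-intron isoforms of Tab2 held 29.8% ± 2.13 of TPM and 4.98% ± 0.754 of counts, led by Tab2-203 with 9.37, 12.6 and 17.8 TPM, while Tab2-202 is the one that covers an intron in full, intron 4 of 205 nt. For Map3k7, non-coding isoforms classed as processed transcripts held 65.5% ± 2.69 of TPM but 13.8% ± 1.85 of counts. Its leading coding isoform, Map3k7-201, had 3.39, 3.53 and 4.26 TPM, below the 865 nt Map3k7-205 with 5.17, 5.36 and 4.81 TPM. Tab3 had 1.18, 2.04 and 2.42 TPM of the coding Tab3-201. Tab1-201 had 0.89, 1.39 and 0.82 TPM, beside 1.07, 0.57 and 1.40 TPM of Tab1-203, whose level rests on 7.4, 3 and 8 counts.

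**Figure D4:**
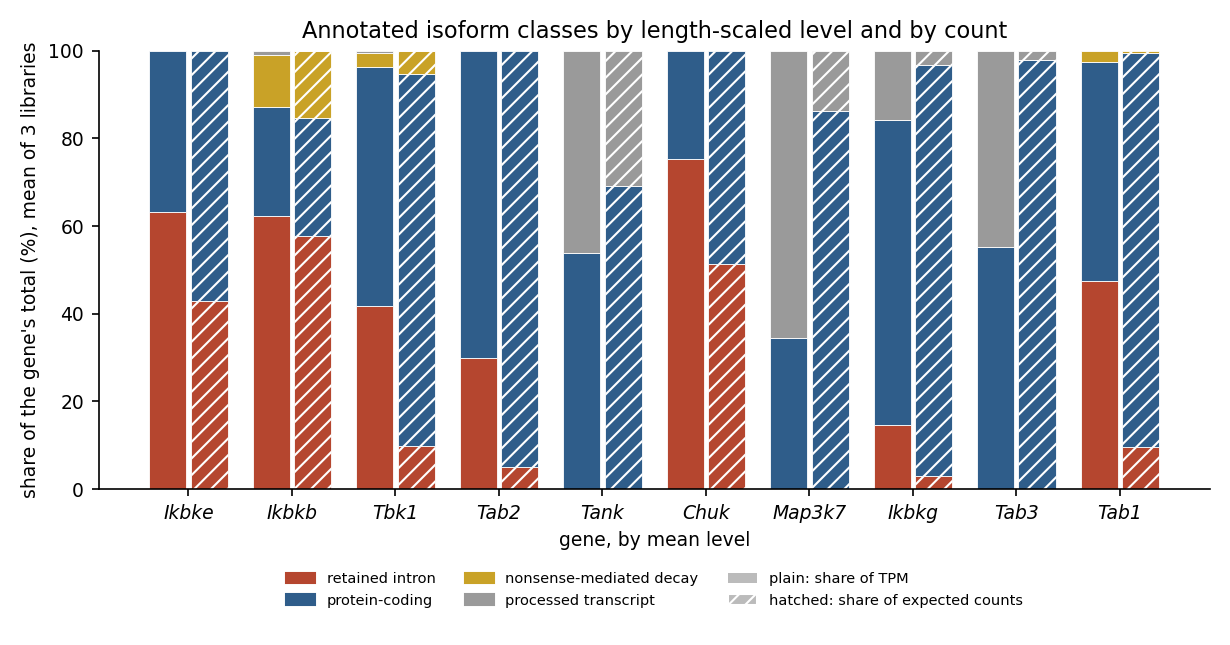
Share of each gene's total held by each annotated isoform class, as the mean of 3 libraries, by TPM (plain bars) and by expected counts (hatched bars). Retained-intron isoforms hold 75.3% of the TPM of Chuk and 51.3% of its counts, and 41.7% of the TPM of Tbk1 but 9.87% of its counts.

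Tank had counts in isoforms from both groups of start sites whose sequences are shown above. The upstream group, 4 isoforms that start near 61578585, held 60.0%, 42.7% and 37.5% of Tank counts in replicates 1, 2 and 3. The downstream group of 5 isoforms, which start 14492 to 14580 nt further on, held 32.4%, 47.7% and 53.1%. Replicate 1 thus had more counts in the upstream isoforms, and replicates 2 and 3 had more in the downstream ones. The total of Tank missed the threshold for variation under TMM scaling. That total passed it by DESeq2 size factors (adjusted p = 0.00241) and by the other quantifier (adjusted p = 4.054e-14). The difference came with opposite moves of single isoforms. The upstream Tank-205 had 17.4, 12.9 and 13.1 TPM, and the downstream Tank-202 had 6.21, 14.3 and 20.4 TPM. By the other quantifier the upstream group held 55.8%, 42.3% and 39.6% of TPM. Start use itself was not measured, because the isoforms also differ beyond their starts. The downstream Tank-202 and Tank-207 end at 61651799 and 61615140, short of the 61654171 of Tank-205. Of downstream isoforms that end with Tank-205, Tank-204 had 62.8, 40.9 and 42.6 counts and Tank-203 had 4.39, 10.9 and 6.86. With 1 group of libraries the shift in isoform shares was not tested.

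Other genes of the pathway were taken as 49 genes in 12 roles. Their median was 19.4 TPM, against 58.7 TPM for the 10 genes of the complexes and 0.277 TPM for all protein-coding genes. None of the 49 had a higher mean TPM than Ikbke. The nearest were Tnfaip3, which encodes the ubiquitin editor A20, with 353, 481 and 550 TPM, and Nfkbia, which encodes IκBα, with 314, 363 and 306 TPM. Both stayed below Ikbke in every library in TPM. By TMM-scaled CPM, which is not corrected for length, Tnfaip3 lay above Ikbke in every library. It had 1585, 1548 and 1568 CPM there, against 1439, 1142 and 1111 CPM for Ikbke. Ikbkb had 9 of the 49 above it, Tbk1 had 10, Map3k7 had 23 and Tab1 had 48. The only one below Tab1 was Map2k6, a TAK1 substrate kinase, at 0.08, 0.08 and 0.03 TPM. Without replicate 2 the adaptor gene Azi2 rose above Ikbkb, with means of 107.2 and 98.7 TPM. The adaptor gene Mavs was then level with Tab1, both at 2.17 TPM.

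Upstream of the complexes, the co-receptor gene Cd14 had 32.2, 143 and 17.5 TPM in replicates 1, 2 and 3. Its mean was 64.1 TPM, and 24.8 TPM without replicate 2. Ly96 averaged 12.7 TPM and Tlr4, the receptor, 6.14 TPM. Of the adaptors Myd88 averaged 21.2 TPM, Ticam2 6.51 TPM and Ticam1, which leads to TBK1, 4.54 TPM. Among IRAK kinases Irak2 had 86.7 ± 6.91 TPM, Irak1 16.2 ± 2.21 TPM and Irak4 4.89 ± 1.63 TPM. Ubiquitin ligases ranged from Peli1 at 122 ± 38.0 TPM and Birc3 at 118 ± 37.4 TPM to Traf3 at 8.70 ± 1.07 TPM. Of the linear ubiquitin assembly complex, Rnf31, its catalytic subunit, had 119 ± 7.89 TPM, Rbck1 26.2 ± 10.1 TPM and Sharpin 24.6 ± 4.75 TPM.

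Beside the complexes, other TBK1 adaptors spanned Azi2 at 102 ± 20.7 TPM, above Tank, Optn at 44.1 ± 5.23 TPM and Mavs at 2.51 ± 0.83 TPM. The MAP3 kinase Map3k8 had 87.5 ± 36.1 TPM, above Map3k7, with Map3k3 at 13.8 ± 1.74 TPM and Map3k14 at 7.18 ± 0.94 TPM. Chaperones of these kinases were at 35.8 ± 13.6 TPM for Hsp90ab1, 16.0 ± 12.1 TPM for Hsp90aa1 and 15.8 ± 1.33 TPM for Cdc37. Without replicate 2 Hsp90aa1 averaged 9.15 TPM, below Cdc37 at 15.1 TPM. Among substrates, Nfkbia averaged 328 TPM, Nfkb1 263 TPM and Nfkbib 19.2 TPM for IKK. For TBK1 and IKKε, Irf7 had 179 ± 62.2 TPM and Irf3 27.6 ± 9.40 TPM, and for TAK1, Map2k4 had 52.0 ± 16.3 TPM and Map2k3 19.4 ± 5.61 TPM. Of the brakes, Tnfaip3 averaged 461 TPM, Tnip1 124 TPM and Otulin 8.85 TPM. Of 48 listed genes tested for variation, 41 varied between libraries, a larger share than the 68.8% of all genes. The gap between these shares was not tested. The median range of the listed genes was 1.35-fold, against 1.54-fold over all genes tested. Isoform ratios by TPM could be had for 34 of the listed genes, with 6 above 0, 10 below and 18 not past the threshold. Over all genes tested 19.4% were above and 29.7% below, so these isoform counts do not set the listed genes apart.

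**Figure D5:**
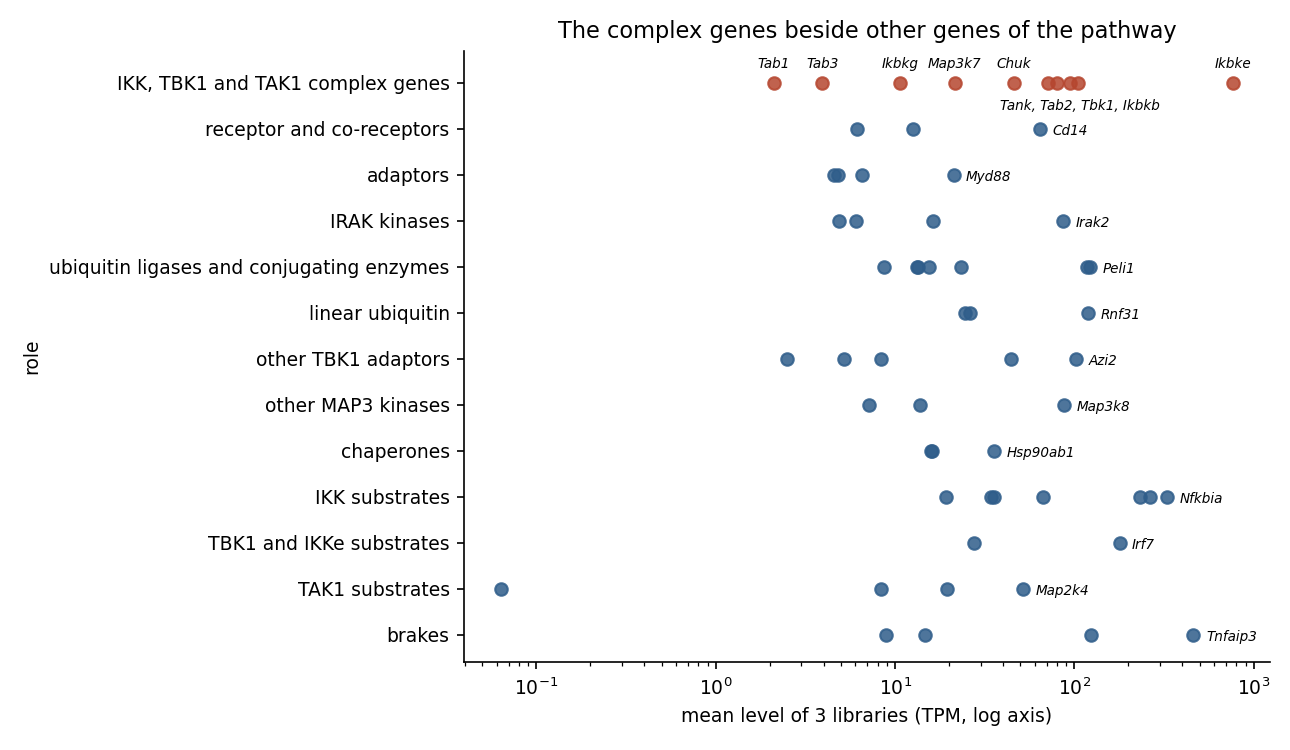
Mean level of 3 libraries in TPM on a log axis for the 10 genes of the complexes (top row) and for 49 other genes of the pathway by role, with the highest gene of each role named. Ikbke, at 767 TPM, lies to the right of every other gene, the nearest being Tnfaip3 at 461 TPM. By TMM-scaled CPM, not shown here, Tnfaip3 lay above Ikbke.

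The genes most like Ikbke and Tbk1 over the 3 libraries were sought among 9143 protein-coding genes of at least 1 TPM, by Euclidean distance in log2(TPM + 0.1). For Ikbke they were Ahnak at a distance of 0.42, Tcirg1 at 0.43 and Malt1 at 0.47. Ahnak had 587, 649.2 and 726.5 TPM, and no library of it reached that of Ikbke. For Tbk1 they were Kmt2a at 0.05, Npepps at 0.07 and Dhx58 at 0.13, with Kmt2a at 96.4, 84.0 and 102 TPM. With 3 libraries of 1 condition the distance mostly measures a similar level.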

How the data were processed

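Total RNA of the chromatin fraction was sequenced in 3 libraries of 1 group, placed there by the labels. The authors deposited, per library, gene and transcript tables of expected counts with TPM, made from alignments to the mm10 transcriptome with GENCODE M21 per the deposited notes. They also deposited a second transcript table, with estimated counts and TPM obtained from the reads without those alignments, called the other quantifier and summed per gene. For the aligner, the quantifiers and strandedness, no name, version or setting was found in the sources used here.

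Symbols and coordinates come from GENCODE M21, with 55536 of the gene table's 81881 entries matched. Unmatched entries, 0.845%, 0.282% and 0.179% of the counts of replicates 1, 2 and 3, were dropped. Sequences come from RefSeq on GRCm38.p6. The 10 genes and all lists were chosen with earlier results of these data known. The genes named are the 10, the highest isoform of each class, the 3 genes nearest to Ikbke and to Tbk1, and the highest 2 and lowest 1 of each pathway role; other isoforms and genes were named after their values were seen.

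Variation was tested by chi-square on expected counts rounded to whole numbers, for genes averaging 10 or more, with factors from edgeR 4.0.16. Isoform ratios used genes that have both classes and average 50 counts or more, with limma 3.58.1 (moderated test, pseudocount 0.1). Adjustment was by Benjamini-Hochberg over all genes tested, with a threshold of 0.05. Both tests were tested on simulated data. Alternatives were the other quantifier, the authors' posterior mean TPM, DESeq2 1.42.0 size factors, other pseudocounts and filters, and leaving out each library; 3 were added after the data were seen: protein-coding isoforms only, isoform ratios by expected counts, and pathway means with a library left out. A count of 3 in a library equals 0.152, 0.147 and 0.136 CPM in replicates 1, 2 and 3. This floor reflects counting error alone: PCR copies are not separate molecules.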

Additional observations from a re-analysis of the deposited data

How the results depend on the processing

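The 6 pair contrasts kept their direction by the other quantifier, by expected counts and with protein-coding isoforms alone. The rest of the 48 alternative values could not turn, because each pair had the same sign in 3 of 3 libraries. A pseudocount of 1 or a library left out keeps such a sign, and a minimum of 1 TPM dropped no pair. Alternative values ranged from 2.45 to 3.07 for Ikbke over Tbk1, 0.65 to 1.89 for Ikbkb over Chuk and 3.22 to 4.61 for Tab2 over Tab3. They ranged from 1.79 to 3.67 for Ikbkb over Ikbkg, 0.26 to 1.07 for Tbk1 over Tank and 2.75 to 3.94 for Map3k7 over Tab1. Of the 10 genes, 8 varied between libraries, with 9 by DESeq2 size factors, 7 by the other quantifier, and 4 to 9 when 1 library was left out, the lowest without replicate 1; over all genes 9769 varied, with 9656 by DESeq2 size factors, 13600 by the other quantifier, and 6826, 7755 and 6687 without replicates 1, 2 and 3. By the other quantifier Tab1 and Tab3 lost the call and Tank gained it. Isoform ratios above 0 numbered 2 of 7, 3 with a pseudocount of 1 or by the other quantifier, 3 of 10 with all non-coding isoforms, which takes in all 10 genes, and 1 by expected counts. Those below 0 numbered 2, and 1 with all non-coding isoforms in place of retained-intron ones (Ikbkg then -1.25, adjusted p = 0.0553), 4 by expected counts, and 1 to 2 when 1 library was left out. The ratio turned for Ikbke by expected counts (-0.41), and for Tab1 by the other quantifier (0.038) and without replicate 2, where leaving out 1 library gave -0.456 to 0.473; apart from length scaling, which counts lack by construction, the cause was not tested. Over all genes, ratios above 0 numbered 1084, against 2501 by the other quantifier and 607 without replicate 1, and ratios below 0 numbered 1666, against 3269 by expected counts and 925 without replicate 1. No paired analysis was possible because the libraries form 1 group. Depth limits Tab1, Tab3 and Ikbkg most.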
